A study of Gallus gallus with 24 samples.

Results

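Transcript levels of the sinoatrial node (SAN) and the atria were compared after both tissues had been cultured with the RhoA activator CN03. The members were the 4 SAN and the 4 atrial libraries labelled with CN03, 8 of the 24 libraries of the series, and the comparison ran over all 12422 genes with a symbol. Tissue came from chick embryos (Gallus gallus) at HH stage 30, and each library was a pool of 5 microdissected preparations. The CN03 groups had been kept for 14 hours in serum-containing medium with 0.25 ug/ml CN03. The other 4 groups, also with 4 libraries each, were both tissues directly after isolation (t0) and both tissues after the same time in medium with the water vehicle. They served here to say which tissue differences existed without CN03. The explants held every cell type of the dissected piece, so that fewer cells of a type and less RNA per cell cannot be told apart in these data.

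The SAN is the pacemaker of the heart. Its cells are held apart from working atrial myocardium by transcription factors such as SHOX2, ISL1, TBX3 and TBX18, which keep NKX2-5 and the genes of fast conduction and contraction low and allow the channels of diastolic depolarization to be expressed. RhoA is a small GTPase that drives actin polymerization and actomyosin contraction, and through these it reaches transcription factors that respond to cell tension, among them the SRF cofactors MRTFA and MRTFB and the TEAD cofactor YAP1. CN03 holds RhoA in its active, GTP-bound form. The question was which of the genes that set SAN and atria apart still differed when RhoA was active in both, and which differences appeared only then.

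Values are log2 expression as deposited, and a difference is the SAN mean minus the atrial mean on that scale (log2FC), so that a positive value is higher in the SAN. A gene was called at an adjusted p under 0.05 (limma, Benjamini-Hochberg over all genes) with a log2FC above 1 in either direction. The tissue labels matched their defining genes in the CN03 libraries. SHOX2 and HCN4 were higher in every SAN library than in any atrial library, and NKX2-5, NPPA and BMP10 were higher in every atrial library. Across genes, libraries of the same tissue correlated with r of 0.978 to 0.992 and libraries of different tissues with r of 0.949 to 0.975. A first principal component with 59.3% of the variance separated SAN from atria. The second, with 11.8%, set SAN library 1 apart from the other SAN libraries, and in atrial library 2 the row with no gene symbol took 17.9% of the linear sum against 6.58 to 9.38% in the other 23 libraries. Counts without both libraries stayed within 1.5 times those given below. Read depth is unknown, and precision therefore rests on the spread between the 4 pools. SAN and atrial libraries did not overlap in 15.1% of all genes, with the SAN higher, and in 17.3%, with the atria higher.

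After CN03, 983 genes, or 7.91% of those tested, differed between the tissues, 477 of them higher in the SAN (3.84%) and 506 higher in the atria (4.07%). Many of the SAN calls concerned low values. Among genes with a mean log2 value of at least 2 in the higher tissue, 224 were higher in the SAN and 403 in the atria. The even split depended on the treatment of low values, because 223 genes were higher in the SAN and 363 in the atria with a pseudocount of 1, and the SAN took 48.5% of the calls without and 38.1% with it. Some of the largest SAN differences, among genes at a mean log2 value of at least 2 without overlap, were those of the positional factor HOXA5, the BMP antagonist CHRDL1, the peptidase inhibitor PI15, the secretin receptor SCTR, the WNT-inactivating protease TRABD2A and the matrix proteoglycan LUM, with log2FC of 4.53 to 5.07. In the atria, by the same limits, the guidance ligand NTN1, the ERG-family potassium channel KCNH7, the peptide hormone GRP, the parvalbumin OCM3, the myosin light chain MYL10, the protease PLAU, the cardiac transcription factor NKX2-5 and the oxygen-binding protein MB led, with log2FC of -5.03 to -3.49. Cardiomyocyte markers lay mostly on the atrial side in all 3 conditions. Of 11 measured, 7 were higher in the atria after CN03, against 6 at t0 and 5 with vehicle, and MYL4 was higher in the SAN. The median log2FC of the markers was -1.13, after -1.05 at t0 and -0.86 with vehicle, and none of their interactions passed. Their summed linear level was 11300 to 13400 in SAN and 20600 to 27500 in atria, and the part of myocyte content in the differences below was not tested.

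Genes called between the tissues at t0 were taken as tissue identity genes, 852 SAN-enriched (6.86% of all genes) and 356 atria-enriched (2.87%). With vehicle, 7.66% of all genes were called higher in the SAN and 3.36% higher in the atria. After CN03, 298 of the SAN-enriched genes (35.0%) were still called higher in the SAN, 529 were not called and 25 were called higher in the atria. In the vehicle groups 529 had kept the call (62.1%) and 9 had turned. Of the atria-enriched genes, 168 (47.2%) were still called higher in the atria after CN03, close to the 182 (51.1%) with vehicle, and 3 had turned. Both shares lie far above the percentage of all genes called in that direction, 3.84% and 4.07%. Whether the difference itself had changed was tested as an interaction, the CN03 difference minus the vehicle difference, with no limit on its size. It was lower in 277 of the SAN-enriched genes (32.5%, against 15.4% of all genes), counted as narrowed, and higher in 41 (4.81%, against 11.7%). Of the 277, 53 were still called higher in the SAN after CN03 and 204 were not called. Genes counted as narrowed thus include some whose difference had turned. Among atria-enriched genes it narrowed the difference in 70 (19.7%, against 11.7% of all genes) and widened it in 52 (14.6%, against 15.4%). With quantile normalization the 70 of 356 became 129 of 502, and with a pseudocount of 1 the kept SAN-enriched genes numbered 136 of 509. For SAN-enriched genes the median log2FC was 0.60 after CN03 and 1.22 with vehicle, and for atria-enriched genes -0.93 and -1.02, beside a median of -0.004 over all genes after CN03.

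**Figure D1:**
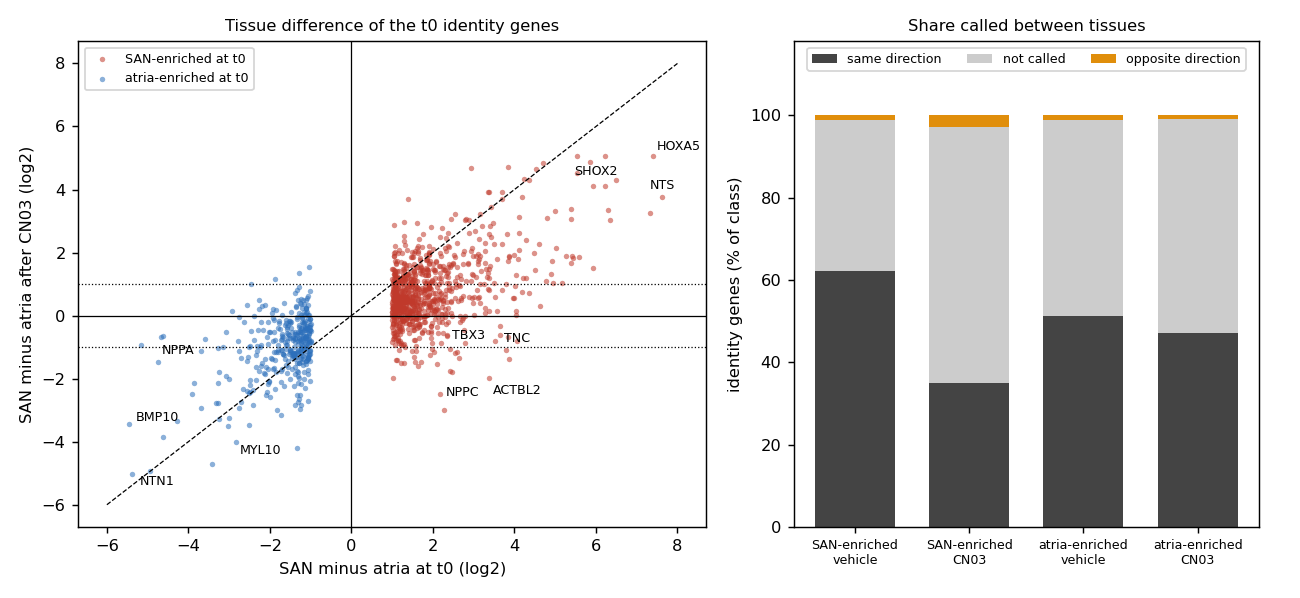
Left, log2 difference between SAN and atria at t0 (x axis) and after CN03 (y axis) for each of the 852 SAN-enriched (red) and 356 atria-enriched (blue) genes. Dotted lines mark a log2FC of 1 in either direction and the dashed line marks equal differences. Right, the share of each class called in the same direction, not called or called in the opposite direction with vehicle and with CN03. The SAN-enriched genes that kept their call numbered 529 with vehicle and 298 after CN03, and the atria-enriched ones 182 and 168.

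Of the 22 SAN transcription factors on the list used, 6 were called higher in the SAN after CN03 (SHOX2, ISL1, TBX18, TBX2, TCF21 and SOX9) and none higher in the atria. The list's median log2FC was 0.22, after 0.80 at t0 and 0.71 with vehicle. SHOX2, the homeodomain factor that represses NKX2-5 in the node, read 6.48, 6.28, 6.19 and 6.29 in SAN libraries 1 to 4 and 2.43, 1.62, 2.39 and 2.31 in the atrial ones. The groups lay far apart, with a log2FC of 4.13 ± 0.27 (SE, adjusted p = 1.15e-10), although the difference was 1.80 smaller than with vehicle (interaction adjusted p = 0.00114). ISL1, a LIM-homeodomain factor of cardiac progenitors and pacemaker cells, read 5.25, 4.72, 4.78 and 4.58 in SAN against 3.49, 2.96, 3.21 and 3.16 in atria. The groups again did not overlap, at a log2FC of 1.63 ± 0.27 (adjusted p = 4.83e-05), and the difference had narrowed by 2.09 from vehicle (interaction adjusted p = 0.000276).

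TBX3, a T-box repressor of the working myocardial programme, no longer differed by the test. It read 5.60, 5.62, 5.65 and 5.76 in SAN and 5.93, 5.70, 5.92 and 5.83 in atria, with a log2FC of -0.19 ± 0.15 (adjusted p = 0.341). The atrial values overlapped the upper part of the SAN range. At t0 and with vehicle its log2FC had been 2.37 and 1.89, and the interaction was -2.08 (adjusted p = 2.72e-07). Both tissues had moved, since TBX3 fell by 0.59 in SAN with CN03 against vehicle and rose by 1.49 in atria. BMP target ID1, an inhibitor of basic helix-loop-helix factors, behaved in the same way, with a log2FC of 1.33 at t0, 2.19 with vehicle and 0.23 after CN03 (adjusted p = 0.296) and an interaction of -1.97 (adjusted p = 2.28e-06). GATA5, one of the cardiac GATA factors, had been called at t0 and with vehicle with log2FC of 1.34 and 1.47 and reached 0.55 after CN03, short of the limit, with groups that did not overlap.

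TBX18, TBX2 and TCF21 were called higher in the SAN with vehicle and after CN03, and none of their interactions passed. At t0 TBX2 had been called, at 1.06, whereas TBX18 (0.86) and TCF21 (0.54) lay under the fold limit and were not identity genes as defined here. TBX18, which marks the SAN head and the epicardium, read 5.44, 6.37, 6.62 and 5.85 in SAN and 4.57, 4.78, 5.16 and 4.95 in atria. No library of one tissue reached the other, and the log2FC of 1.20 ± 0.24 (adjusted p = 0.000436) equalled that with vehicle, 1.18. TBX18 fell in both tissues with CN03, by 1.79 in SAN and 1.80 in atria. The T-box repressor TBX2 had a log2FC of 1.43 (adjusted p = 2.64e-07) and the epicardial and fibroblast factor TCF21 one of 1.67 (adjusted p = 1.34e-09). SOX9, a factor of valve and cartilage mesenchyme, was called at a log2FC of 1.00 after 1.56 at t0, and its difference was 1.40 smaller than with vehicle (interaction adjusted p = 0.00175). HAND1 had been called higher in atria at t0, at -3.14, and with vehicle, at -1.84, and stood at -0.99 ± 0.23 after CN03, just outside the fold limit.

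**Figure D2:**
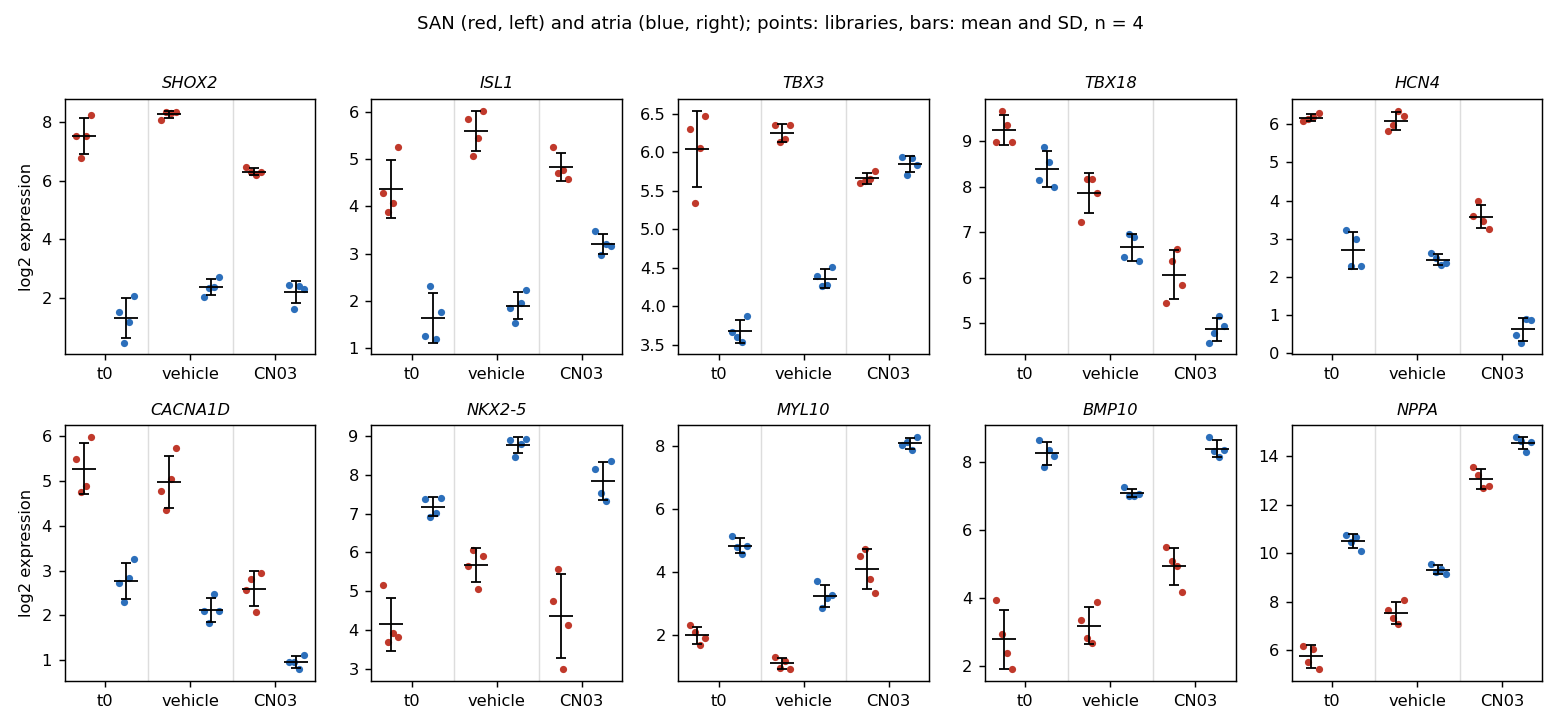
Log2 expression (y axis) of 10 SAN and atrial genes at t0, with vehicle and after CN03. TBX18 was not called at t0 (log2FC 0.86). Points are single libraries, SAN in red on the left and atria in blue on the right of each pair, and bars give the mean and SD of 4 libraries. After CN03 the tissues stayed apart for 9 of the genes, whereas the TBX3 values, 5.60 to 5.76 in SAN and 5.70 to 5.93 in atria, met.

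Of the lists examined, HOX genes had the largest median difference. HOX proteins carry anterior-posterior position and are known from retinoic acid-exposed progenitors at the venous pole of the heart. Of 14 measured, 12 were called higher in the SAN after CN03, against 13 at t0 and 13 with vehicle, and the median log2FC was 2.82 after 4.08 at t0 and 2.95 with vehicle. HOXB6 and HOXB7 were not called. HOXA5 read 3.21, 2.25, 3.51 and 3.46 in SAN and -2.73, -1.49, -1.87 and -1.77 in atria, a log2FC of 5.07 ± 0.35 (adjusted p = 2.38e-10). Every atrial value of HOXA5 was negative, that is, under 1 on the linear scale. HOXA3 (log2FC 4.12) and HOXA4 (4.29) followed, and their differences had narrowed from vehicle by 1.61 and 1.23 (interaction adjusted p = 0.00443 and 0.034). The HOXA4 interaction lost significance when single CN03 or vehicle libraries were left out, for instance without SAN CN03 library 2 (-1.06, adjusted p = 0.0755).

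Among 29 pacemaker ion channel genes, 6 were called higher in the SAN (among them HCN4, HCN2, CACNA1D, CACNA1G and CACNA1H) and 5 higher in the atria (KCNJ3, KCNIP2, KCNJ2, KCNK2 and KCNQ1), with a median log2FC of -0.13. HCN4, the main carrier of the funny current, read 3.59, 4.00, 3.46 and 3.27 in SAN and 0.48, 0.27, 0.90 and 0.87 in atria. The lowest SAN library stood well above the highest atrial one, and the log2FC was 2.95 ± 0.19 (adjusted p = 1.15e-10), after 3.47 at t0 and 3.65 with vehicle. HCN4 fell with CN03 in both tissues, by 2.52 in SAN and 1.82 in atria, and the interaction of -0.70 did not pass (adjusted p = 0.0595). It did pass in 10 alternatives, with values of -1.08 to -0.70, among them a pseudocount of 1 (adjusted p = 0.00122) and quantile normalization (adjusted p = 0.00664). HCN2 reached 1.05 ± 0.30 (adjusted p = 0.00808) with groups that overlapped, and without SAN library 1 and atrial library 2 it had 0.75 (adjusted p = 0.0897).

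The calcium channel subunits of the pacemaker potential kept their order. CACNA1D, an L-type pore subunit that opens at low voltage, read 2.56, 2.82, 2.07 and 2.94 in SAN and 0.97, 0.96, 0.80 and 1.12 in atria (log2FC 1.63 ± 0.27, adjusted p = 5.24e-05), a difference 1.23 smaller than with vehicle (interaction adjusted p = 0.0203; 0.0509 without SAN vehicle library 4). The T-type subunits CACNA1G and CACNA1H had log2FC of 1.54 and 1.51, after 1.30 and 1.68 with vehicle. Each of these 3 genes separated the tissues in every library.

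The atrial calls were genes of potassium channels or their subunits. KCNJ2, the inward rectifier that holds the resting potential of working myocytes, read 5.02, 5.24, 4.90 and 4.94 in SAN and 6.77, 6.40, 6.65 and 6.50 in atria. The groups did not overlap, and the log2FC of -1.56 ± 0.16 (adjusted p = 1.19e-07) was new, since it had been -0.71 at t0 and -0.04 with vehicle (interaction -1.51, adjusted p = 4.44e-05). KCNJ2 fell by 0.98 in SAN and rose by 0.53 in atria with CN03. KCNQ1, pore of the slow delayed rectifier, was also a new difference, at -1.05 ± 0.10 (adjusted p = 5.45e-08) after 0.22 with vehicle. KCNK2, a stretch-activated background potassium channel, was higher in the atria at t0 (-1.06, adjusted p = 0.0188) and after CN03 (-1.34 ± 0.34, adjusted p = 0.00356), and higher in the SAN with vehicle (1.39). It rose by 2.42 in atria with CN03 against vehicle.

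KCNJ3, a subunit of the acetylcholine-activated potassium channel, remained higher in atria at -2.09 ± 0.29 (adjusted p = 4.98e-06), after -2.03 at t0 and -2.75 with vehicle (interaction 0.66, adjusted p = 0.239). Its partner subunit KCNJ5 went from 0.13 at t0 and -0.87 with vehicle to 0.88 ± 0.16 after CN03 (interaction 1.75, adjusted p = 5.72e-06), with groups that did not overlap but a value under the fold limit. KCNIP2, an accessory subunit of the transient outward channel, had -1.93 ± 0.50 (adjusted p = 0.00396). KCNJ8 and KCNH2, pores of an ATP-sensitive and of the rapid delayed rectifier channel, were called higher in SAN at t0 (2.36 and 1.00) but neither with vehicle (0.78 and 0.07) nor after CN03 (0.26 and 0.12, adjusted p = 0.235 and 0.559). Neither interaction passed (adjusted p = 0.108 and 0.899).

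Some calcium cycling genes also differed. Of 16 measured, SLN was called higher in the SAN, PLN, SRL and S100A1 in the atria, and 12 were not called. At t0 the calls were 1 in SAN and 1 in atria, and with vehicle 2 and 3. Over all genes the shares called after CN03 were 3.84% and 4.07%. Sarcolipin (SLN), an inhibitor of the sarcoplasmic reticulum calcium pump, read 4.79, 4.62, 4.99 and 5.28 in SAN and 1.46, 0.73, 0.82 and 2.83 in atria (log2FC 3.46 ± 0.40, adjusted p = 4.19e-07). Phospholamban (PLN), another inhibitor of the same pump, read 6.30, 6.45, 6.35 and 6.03 in SAN and 8.60, 8.60, 8.33 and 8.36 in atria (log2FC -2.19 ± 0.18, adjusted p = 3.78e-09). The 2 inhibitors thus marked opposite tissues, and neither interaction passed (adjusted p = 0.0767 and 0.0628). The calcium-binding protein of the reticulum lumen, SRL, had a log2FC of -1.70. Of 13 autonomic receptor and cAMP genes, none was higher in the SAN, and RGS6, a brake on muscarinic signalling, was higher in the atria. Its log2FC was -1.15 ± 0.18, and the gene was not called at t0 or with vehicle.

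The calls of atrial identity genes were as many after CN03 as before. Of 20 atrial identity genes measured, 7 were called higher in the atria after CN03 (MYL10, NKX2-5, BMP10, MYH7, NPPA, GJA5 and CAV3), against 7 at t0 and 7 with vehicle, and MYL4 was called higher in the SAN. The median log2FC was -0.56, after -0.54 at t0. NKX2-5, the homeodomain factor of working myocardium, read 4.73, 5.56, 2.98 and 4.11 in SAN and 8.15, 7.53, 7.32 and 8.35 in atria. The SAN libraries were spread widely but stayed below all atrial ones, and the log2FC of -3.49 ± 0.38 (adjusted p = 1.93e-07) was near the -3.04 at t0 and -3.10 with vehicle. BMP10, a ligand of atrial and trabecular myocardium, read 5.50, 5.09, 4.95 and 4.19 in SAN and 8.72, 8.31, 8.14 and 8.34 in atria (log2FC -3.45 ± 0.32, adjusted p = 2.03e-08). The difference had been -5.45 at t0 and -3.90 with vehicle, and the interaction did not pass (0.45, adjusted p = 0.499).

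The natriuretic peptide gene NPPA read 13.58, 13.23, 12.68 and 12.78 in SAN and 14.78, 14.61, 14.19 and 14.58 in atria. Its difference of -1.47 ± 0.23 (adjusted p = 2.15e-05) had been -4.75 at t0 and -1.78 with vehicle. NPPA rose with CN03 in both tissues by similar amounts, 5.53 in SAN and 5.22 in atria, so that the interaction was 0.31 (adjusted p = 0.521). MYL10, a regulatory myosin light chain, differed more after CN03 than with vehicle. It read 4.50, 4.73, 3.78 and 3.34 in SAN and 8.04, 8.14, 7.87 and 8.28 in atria, a log2FC of -4.00 ± 0.23 (adjusted p = 1.46e-11) against -2.84 at t0 and -2.15 with vehicle (interaction -1.84, adjusted p = 0.000166). The connexin gene GJA5 (-1.24) and the slow myosin heavy chain MYH7 (-1.62) held the values they had with vehicle, -1.34 and -1.76. GJA1, the other main connexin gene, did not differ by the test after CN03 (-0.17, adjusted p = 0.484), nor at t0 (0.04, adjusted p = 0.875), and had been 0.93 higher in the SAN with vehicle.

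MYL4, the essential light chain of atrial myosin, went against its list. It read 8.83, 8.95, 8.79 and 8.97 in SAN and 7.31, 7.60, 7.58 and 7.88 in atria. All SAN values lay above the atrial ones, with a log2FC of 1.30 ± 0.18 (adjusted p = 7.75e-06), after -0.82 at t0 and 0.70 with vehicle. CAV3, the caveolin of muscle, came to differ only after CN03 by the calls, at -1.12 ± 0.21 (adjusted p = 0.000162, interaction -1.51).

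**Figure D3:**
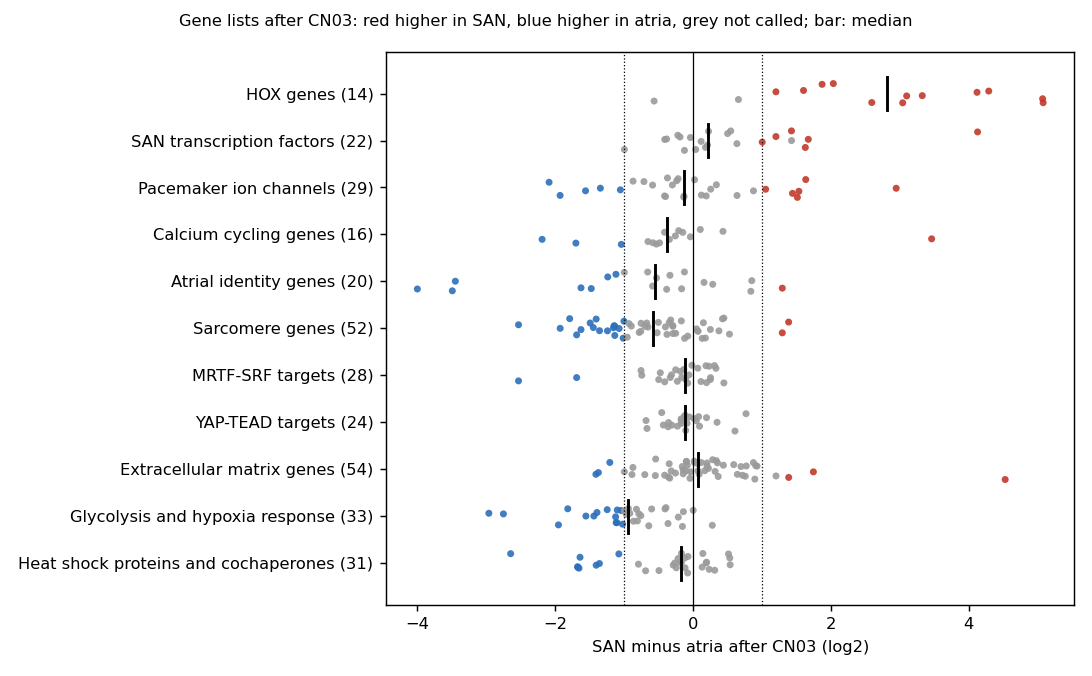
Log2 difference between SAN and atria after CN03 (x axis) for each measured member of 11 gene lists (y axis, number measured in brackets). Points are genes, red if called higher in SAN, blue if called higher in atria and grey if not called, black bars are list medians, and dotted lines mark a log2FC of 1. HOX genes lie to the right with a median of 2.82, sarcomere genes and the glycolysis and hypoxia genes lie to the left with medians of -0.59 and -0.94, and no YAP-TEAD target was called.

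Contractile genes lay mostly on the atrial side of the calls. Of 52 sarcomere genes, 17 were called higher in the atria and 2 (MYL4 and TNNT3) in the SAN, with 13 and 2 at t0 and 10 and 6 with vehicle, and the median log2FC was -0.59 after -0.33 at t0 and 0 with vehicle. FHL2, a LIM-domain cofactor and sarcomere protein, read 5.06, 5.49, 5.33 and 5.47 in SAN and 8.23, 7.58, 7.53 and 8.13 in atria (log2FC -2.53 ± 0.15, adjusted p = 5.39e-11). The ventricular and slow light chain MYL3 had a log2FC of -1.79 and cardiac troponin C (TNNC1) one of -1.49. CTNNA3, a catenin of the intercalated disc, remained strongly atrial at -2.77 ± 0.18, though 1.10 less so than with vehicle (interaction adjusted p = 0.00299). The interaction was lower in 17 of the 52 sarcomere genes and higher in 1, against 15.4% and 11.7% of all genes. The cardiomyocyte markers, most of them sarcomere genes themselves, were mostly higher in the atria and had no interaction past the test. The part of myocyte content in the sarcomere differences was not tested.

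Targets of the transcription factors downstream of RhoA were called at shares near or below the 7.91% of all genes. Of 28 YAP-TEAD targets listed, 24 were measured, and CCN1, CTGF, AJUBA and ARHGEF17 had no row under these symbols. None of the 24 was called, and with vehicle 3 had been called higher in the SAN. An unadjusted p under 0.05 in limma was reached by 6, without a share of all genes to set beside it. Their interaction was lower in 10 of the 24 and higher in none, against 15.4% and 11.7% of all genes. Of 38 MRTF-SRF targets listed, 28 were measured. FHL1 (-1.69) and FHL2 were called higher in atria and none in SAN, against 4 and 4 with vehicle. Of 54 matrix genes, a share near that of all genes was called in each direction. The proteoglycan LUM, the thrombospondin THBS2 and SMOC2 were higher in the SAN and ELN, LOX and ADAMTS5 in the atria, whereas 11 had been higher in the SAN at t0 and 7 with vehicle. The aggrecan-cleaving protease ADAMTS5 had a log2FC of -1.41 ± 0.24 and THBS2 one of 1.39 ± 0.22.

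Several SAN-enriched genes of matrix and mesenchyme, picked after their values were seen, were not called after CN03. TNC, a matrix glycoprotein of remodelling tissue, read 7.40, 7.02, 7.89 and 8.03 in SAN and 7.55, 8.04, 7.99 and 8.13 in atria, a log2FC of -0.34 ± 0.31 (adjusted p = 0.404) after 3.65 at t0 and 2.43 with vehicle. It rose with CN03 in both tissues, by 3.35 in SAN and 6.13 in atria. The hyaluronan synthase HAS2 had a log2FC of 2.66 at t0, 1.18 with vehicle and -0.02 after CN03, and the WNT agonist RSPO3 one of 2.74, 1.26 and -0.09. The mesenchymal factor TWIST1 went from 2.11 and 2.85 to 0.53 (adjusted p = 0.063), which passed without the fold limit in 6 alternatives (adjusted p = 0.0267 to 0.0471). All 4 interactions passed.

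Some signalling genes kept sharp contrasts. Of 43 BMP, TGF-beta and WNT genes, 4 were called higher in the SAN after CN03 and 7 in the atria. At t0 the counts were 13 and 3, and with vehicle 12 and 5. The interaction was lower in 12 of the 43 and higher in 5, against 15.4% and 11.7% of all genes. Of 35 neural guidance and synaptic genes, 6 were higher in the SAN and 1 in the atria, against 11 and 4 at t0. Over all genes the shares after CN03 were 3.84% and 4.07%. NTN1, the secreted guidance cue netrin, read 1.75, 2.20, 1.42 and 1.87 in SAN and 7.15, 6.44, 6.72 and 7.06 in atria (log2FC -5.03 ± 0.28, adjusted p = 1.40e-11), whereas the netrin receptor gene UNC5C was higher in SAN (1.73 ± 0.21, adjusted p = 9.01e-07). Ligand and receptor were thus higher in opposite tissues, and neither gene's groups overlapped. CHRDL1 read 3.20, 3.29, 3.37 and 3.66 in SAN and -2.05, -1.19, -1.97 and -1.50 in atria (log2FC 5.06 ± 0.44). BMP5, a BMP ligand, read 6.29, 6.33, 5.78 and 5.75 in SAN and 3.43, 2.63, 3.03 and 3.31 in atria. The groups of both BMP pathway genes lay apart. The BMP5 difference of 2.94 ± 0.15 (adjusted p = 6.42e-12) had been 1.47 with vehicle (interaction 1.47, adjusted p = 2.91e-05), and BMP5 fell by 1.03 in SAN and by 2.50 in atria. SFRP2, a secreted WNT antagonist, had 2.62, with an interaction of 0.92 that was 0.25 with a pseudocount of 1 (adjusted p = 0.0201 and 0.507). Neurotensin (NTS), with the largest SAN excess at t0 at 7.62, kept 3.76 ± 0.38, and the thyrotropin receptor TSHR kept 3.34 of 6.29. Both had narrowed from vehicle, by 2.05 and 2.64.

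Differences were counted as new if they were called after CN03, not called at t0 or with vehicle, and had an interaction in the same direction of more than 1 at an adjusted p under 0.05. There were 125 higher in the atria and 28 higher in the SAN. Because the interaction shares the CN03 libraries, the side that moved is given as a description. Of the 28, the atrial level was called lower with CN03 than with vehicle in 22, and in 11 of these the SAN level was lower too. The SAN level was called higher in 3. Of the 125, the atria rose in 58, with the SAN rising too in 17. The SAN fell in 50, with the atria falling too in 14. In 2 genes the atria rose and the SAN fell, and neither tissue was called in 19. Under quantile normalization the 125 became 73, and 66 met a stricter definition with an adjusted p of at least 0.05 at both t0 and vehicle.

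FGF13, an intracellular FGF homologous factor that binds sodium channels, was the new SAN difference with the largest interaction among genes with a mean log2 value of at least 2. It read 4.82, 4.34, 4.75 and 4.66 in SAN and 2.20, 1.94, 1.59 and 2.53 in atria (log2FC 2.58 ± 0.19, adjusted p = 5.18e-10), after 0.30 with vehicle (interaction 2.28, adjusted p = 1.78e-06). It fell with CN03 in both tissues, by 1.84 in SAN and 4.12 in atria. The ubiquitin ligase TRIM36 read 2.65, 2.62, 2.87 and 2.56 in SAN and 0.65, 0.73, 0.59 and 0.81 in atria, with narrow groups 1.98 ± 0.15 apart (adjusted p = 5.51e-10). CCBE1, a secreted factor of lymphatic growth, had 1.44 ± 0.19 and the membrane adaptor PAG1, which recruits the kinase CSK, had 1.48 ± 0.20. PAG1 fell by 1.05 in atria, and its difference from vehicle in SAN was 0.11 (adjusted p = 0.633). TNFAIP2 (1.36), the kinase CDK18 (1.06) and the cytokine receptor IL18R1 (1.54) completed the SAN side among the genes named.

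GPRC5A, an orphan receptor induced by retinoic acid, had the largest interaction of the new atrial differences. It read 1.83, 1.73, 1.56 and 1.92 in SAN and 5.59, 4.91, 4.56 and 4.41 in atria (log2FC -3.10 ± 0.54, adjusted p = 9.63e-05; interaction -4.23), and rose in both tissues, by 1.75 in SAN and 5.98 in atria. SAN vehicle library 1 read 2.59 and the other vehicle libraries lay below 0, and without it the interaction was -3.37 (adjusted p = 3.66e-05). RD3L reached its difference from the other side. It read 3.42, 3.64, 3.52 and 2.97 in SAN and 6.56, 6.12, 5.93 and 6.32 in atria (log2FC -2.84 ± 0.12, adjusted p = 2.06e-13), and with CN03 it fell by 3.29 in SAN and by 0.35 in atria. DNAJC12, a cochaperone of the amino acid hydroxylases, read 4.42, 4.64, 4.20 and 4.28 in SAN and 7.09, 7.11, 6.53 and 7.39 in atria (log2FC -2.64 ± 0.14, adjusted p = 1.32e-11) and moved both ways, down by 0.84 in SAN and up by 1.54 in atria.

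The insulin-like growth factor binding protein IGFBP5 (-1.35 ± 0.19) and the actin-binding phosphatase regulator PHACTR3 (-1.51 ± 0.21) fell in SAN by 2.23 and 2.04 and were not called as changed in atria. The prokineticin ligand PROK2 (-2.60), the membrane glycoprotein CDCP1 (-1.60) and the myosin-binding protein MYBPC1 (-1.93) rose in atria by 4.89, 3.64 and 1.71. The interactions of PROK2 (-3.39) and CDCP1 (-2.48) were smaller than these rises, as their SAN means were also higher than with vehicle. GRP, already higher in atria with vehicle, gained a further 2.48, reading -1.99, -1.84, -1.99 and -2.81 in SAN and 2.56, 2.25, 1.99 and 2.73 in atria. This gain shrank to 0.84 under quantile normalization (adjusted p = 0.367). OCM3 gained 2.58 (interaction adjusted p = 1.91e-05).

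**Figure D4:**
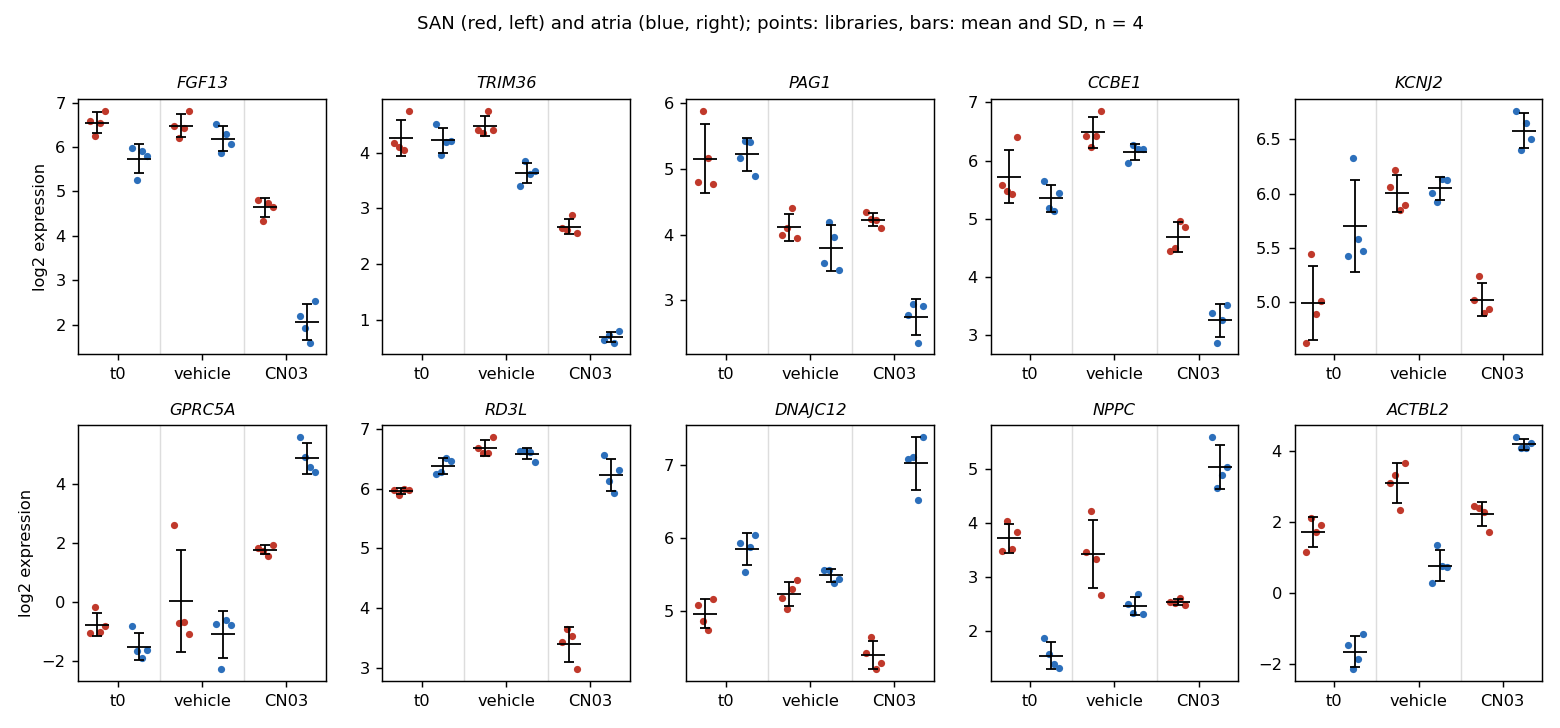
Log2 expression (y axis) of 8 genes with a new tissue difference after CN03 and of 2 genes whose difference turned (NPPC, ACTBL2), at t0, with vehicle and after CN03. Points are single libraries, SAN in red on the left and atria in blue on the right of each pair, and bars give the mean and SD of 4 libraries. The tissues separate after CN03 in all 10 panels, through a larger fall in atria for FGF13 and TRIM36, a fall in SAN for RD3L and a rise in atria for GPRC5A.

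Other groups among the new atrial differences were noticed after the values were seen, and lists of their pathways were then drawn up whole. Of 33 glycolysis and hypoxia response genes, 14 were higher in the atria after CN03 and none in the SAN, against 4 and none at t0 and 5 and 1 with vehicle, and 6 were new. The median log2FC was -0.94, after -0.53 at t0 and -0.19 with vehicle, in the direction of the cardiomyocyte markers. Lactate dehydrogenase LDHA read 9.69, 10.11, 9.68 and 9.77 in SAN and 11.63, 11.07, 10.96 and 11.35 in atria (log2FC -1.44 ± 0.18, adjusted p = 1.46e-06). The angiogenic ligand VEGFA read 7.04, 7.47, 7.29 and 7.18 in SAN and 8.75, 8.48, 8.73 and 8.58 in atria (log2FC -1.39 ± 0.13, adjusted p = 2.79e-08; -0.04 with vehicle). The oxygen-sensing hydroxylase EGLN3 (-1.11) and the enolase ENO2 (-1.55) were also new, while the muscle phosphofructokinase PFKM differed by -2.75 after CN03, -2.72 with vehicle and -2.71 at t0.

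Of 31 heat shock and cochaperone genes, 8 were higher in the atria and none in the SAN, against none in either direction at t0. The small heat shock genes HSPB2 (-1.67 ± 0.16), HSPB3 (-1.64 ± 0.17) and CRYAB (-1.40 ± 0.30), which are expressed in striated muscle, were all new. CRYAB rose in both tissues, by 2.20 in SAN and 4.24 in atria, whereas HSPB3 fell by 2.42 in SAN and 0.66 in atria. Of 8 genes for laminin-332 of the basement membrane and its receptors, 4 were higher in the atria and 1 in the SAN after CN03. None was called at t0, and 1 was higher in the SAN with vehicle. The 4 atrial differences were new, among them those of the laminin chain genes LAMB3 and LAMA3. LAMB3 read 4.10, 4.48, 4.11 and 4.38 in SAN and 5.71, 5.84, 6.68 and 5.87 in atria (log2FC -1.76 ± 0.22, adjusted p = 1.18e-06), and LAMA3 had -1.09 ± 0.22. The groups of both genes did not overlap. These 3 lists were chosen on these samples, so that their counts are no independent evidence of a direction.

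Tissue differences called in one direction at t0 or with vehicle and in the other after CN03 numbered 40 toward the atria and 7 toward the SAN, or 17 and 1 with a pseudocount of 1. Of the 7, none with a symbol not starting with LOC had a mean log2 value of at least 2 in the SAN. NPPC, which encodes C-type natriuretic peptide, read 2.55, 2.52, 2.61 and 2.48 in SAN and 5.59, 4.64, 4.88 and 5.03 in atria (log2FC -2.50 ± 0.23, adjusted p = 1.79e-08), where it had been 2.17 higher in SAN at t0 and 0.96 with vehicle. It fell by 0.88 in SAN and rose by 2.57 in atria. The actin-like gene ACTBL2 read 2.45, 2.41, 2.28 and 1.72 in SAN and 4.40, 4.08, 4.08 and 4.24 in atria (log2FC -1.98 ± 0.28, adjusted p = 5.54e-06), after 3.38 at t0 and 2.33 with vehicle. In both genes every atrial library had passed every SAN library. The neuropeptide-processing enzyme ECEL1 moved from 2.27 at t0 and 0.77 with vehicle to -3.01 ± 0.38, and ANKRD34C from -0.65 at t0 and 1.01 with vehicle to -1.87 ± 0.24. Carbonic anhydrase CA2 had a log2FC of 1.03 at t0, -0.92 with vehicle and -1.99 ± 0.12 after CN03.

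Markers of other cell types differed unevenly between the CN03 groups. Of 16 macrophage and leukocyte markers, 11 had been higher in the SAN at t0 and 11 with vehicle. After CN03 only LAPTM5 (1.89) and LY86 (1.30, groups overlapping) were called, the latter at 0.26 with a pseudocount of 1 (adjusted p = 0.134). Summed linear levels were 62.7 to 83.4 in SAN and 73.0 to 84.7 in atria. The change from vehicle passed as an interaction in only 4 of the 16, all lower, against 15.4% of all genes. Of 21 endothelial and endocardial markers, VWF (2.50) and LYVE1 (1.30) were higher in the SAN and FLT1, NPR3 (-1.25) and SOX17 in the atria. With vehicle, 10 had been higher in the SAN and 1 in the atria. The interaction was lower in 14 of the 21 and higher in none, against 15.4% and 11.7% of all genes. Of 13 neuronal and neural crest markers, NEFL (2.49), NEFM (1.58), TH (1.81) and RET (1.01) were higher in the SAN, and the neurofilament genes NEFL and NEFM had narrowed from 4.22 and 4.88 with vehicle.

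Of 7 globin and other erythroid genes, 5 were called higher in the SAN (HBA1, HBAD, HBZ, HBBA and HBE1), with groups that overlapped. Their summed linear level was 269 to 1610 in SAN and 39.5 to 516 in atria. The globin gene HBAD read 5.54, 5.91, 8.26 and 6.33 in SAN and 3.97, 3.93, 3.01 and 6.53 in atria (log2FC 2.15 ± 0.69, adjusted p = 0.0164), and without SAN library 3 it had 1.56 (adjusted p = 0.0813) and without atrial library 3 it had 1.70 (adjusted p = 0.0677). HBA1 likewise lost significance without either library. The part of blood, immune, vessel or nerve content in the tissue differences was not tested.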

How the data were processed

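RNA of 24 libraries was profiled, and the 8 libraries with CN03 were compared here. The authors prepared ribosomal RNA-depleted, stranded total RNA libraries, sequenced them as paired-end reads, mapped the reads with kallisto, filtered genes with edgeR and deposited log2 expression values already normalized between libraries. The submitters' processing notes name the GRCg7b assembly, and versions, filter and normalization are not given in the sources used here. Each column was assigned to its sample from its name. The row with no gene symbol was left out, leaving 12422 genes, of which 12213 matched the NCBI gene table of GRCg7b for their chromosome.

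The deposited log2 values of the 24 libraries entered one limma 3.58.1 model (R 4.3.3) with a coefficient for each of the 6 groups and 18 residual degrees of freedom. Variances were moderated by empirical Bayes with a trend on mean level, and p-values were adjusted by Benjamini-Hochberg across the genes tested. A call needed an adjusted p below 0.05 together with a log2FC beyond 1 in size. The interaction was the CN03 difference minus the vehicle difference. The scripts were tested on simulated data. Plots were made in Python 3.11.15 with matplotlib 3.10.9.

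The members and the gene lists were chosen with earlier results of these data known. The genes named were drawn from the 10 largest differences after CN03 in each direction, from the measured members of the SAN factor, channel and atrial lists, from the 10 new differences with the largest interaction and 5 turned differences in each direction, from up to 4 called genes of each other list and from 5 identity genes in each direction. Largest differences were taken among symbols not starting with LOC with a mean log2 value of at least 2 in the higher tissue, and for the differences after CN03 among genes without overlap. Genes named outside this rule (TNC, HAS2, RSPO3, TWIST1, TLR5 and the glycolysis, hypoxia, heat shock and laminin genes) were chosen after their values were seen, and some genes that the rule takes are not reported here. Alternatives were a pseudocount of 1, a filter on mean log2 above 1, quantile normalization, median centring, the compared libraries alone, no trend, other fold limits and definitions, the replicate number as a block, each library left out in turn, and no Z or W genes. Without the 2 libraries that stand apart was an alternative chosen after seeing the data. The replicate numbers were not treated as pairs.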

Additional observations from a re-analysis of the deposited data

Results flagged for a closer look

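In 16 named genes, 1 of the 4 CN03 libraries of a tissue lay farther from the others than the Dixon limit for 4 values, which chance passes in about 1 in 20 groups. With many named genes, chance alone passes some groups, and the count is no result about these genes. TLR5 among them was chosen after its values were seen. In SAN library 1, CACNA1G read 1.59 (others 2.56 to 2.63), KCNJ3 0.42 (1.46 to 1.66), PROK2 -1.03 (-0.06 to 0.07) and TLR5 8.77 (2.78 to 2.96). In the other SAN libraries, TBX5 read 6.48 in library 2 (others 6.28 to 6.30), KCNIP2 0.84 in library 2 (-0.59 to -0.42), TNFAIP2 3.00 in library 3 (3.10 to 3.11) and GRP -2.81 in library 4 (-1.99 to -1.84). Among atrial libraries, SHOX2 read 1.62 in library 2 (others 2.31 to 2.43), THBS2 6.12 in library 2 (5.17 to 5.28), SOX9 6.41 in library 4 (6.01 to 6.07) and CRYAB 4.13 in library 4 (4.48 to 4.55). Atrial library 3 stood apart for MYH7 at 10.04 (others 10.40 to 10.41), NPR3 at 3.01 (2.29 to 2.35), LAMA3 at 3.46 (2.63 to 2.68) and LAMB3 at 6.68 (5.71 to 5.87). The row with no gene symbol, outside the comparisons, read 17.81 in atrial library 2 and 16.40 to 16.62 in the other atrial CN03 libraries.

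For 67 named genes the tissue difference after CN03 differed from that with vehicle by the interaction test. Some were named for the size of this interaction or after their values were seen, so that the count is no independent result. Over all genes the interaction was lower in 15.4% and higher in 11.7%. Among the 67 it was positive, toward the SAN, in 13. They were the factors HAND2 (0.43) and TBX5 (0.77), the channel gene KCNJ5 (1.75), CTNNA3 (1.10), BMP5 (1.47) and SFRP2 (0.92). The new SAN differences FGF13 (2.28), TNFAIP2 (1.80), CDK18 (1.29), IL18R1 (1.23), PAG1 (1.16), TRIM36 (1.14) and CCBE1 (1.10) made up the rest. The TBX5 interaction (adjusted p = 0.0396) missed the threshold in 14 alternatives (0.56 to 0.79, adjusted p = 0.0517 to 0.111) and that of SFRP2 in 3.

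It was negative, toward the atria, in 54. Among transcription factors these were SHOX2 (-1.80), ISL1 (-2.09), TBX3 (-2.08), SOX9 (-1.40), ID1 (-1.97), GATA4 (-0.53), GATA5 (-0.92), GATA6 (-0.66), HOXA3 (-1.61) and HOXA4 (-1.23). Channel, receptor and contractile genes with a negative interaction were CACNA1D (-1.23), KCNJ2 (-1.51), KCNQ1 (-1.28), KCNK2 (-2.74), RGS6 (-0.97), MYL10 (-1.84), GJA1 (-1.09), CAV3 (-1.51), MYL3 (-0.56) and MYBPC1 (-2.36). Secreted, matrix and hormone genes were ADAMTS5 (-1.12), NTS (-2.05), GRP (-2.48), OCM3 (-2.58), TSHR (-2.64), TNC (-2.78), HAS2 (-1.20), RSPO3 (-1.35) and TWIST1 (-2.32), the last a nuclear factor. The threshold was missed by GATA4 (adjusted p = 0.0362) in 13 alternatives (-0.53 to -0.40, adjusted p = 0.0504 to 0.0959), by HOXA4 in 8, by MYL3 in 5, and by CACNA1D, ADAMTS5 and GRP in 1 each.

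New atrial differences had interactions of -4.23 (GPRC5A), -3.39 (PROK2), -2.94 (RD3L), -2.48 (CDCP1), -2.43 (PHACTR3), -2.39 (DNAJC12) and -2.30 (IGFBP5). Turned differences had -3.78 (ECEL1), -3.46 (NPPC), -1.07 (CA2), -4.31 (ACTBL2) and -2.87 (ANKRD34C). Vessel and nerve markers had -1.16 (VWF), -1.01 (FLT1), -1.74 (NEFL) and -3.31 (NEFM). The VWF interaction (adjusted p = 0.0479) missed the threshold in 22 alternatives (-1.23 to -0.80, adjusted p = 0.0503 to 0.15), among them a pseudocount of 1, median centring and most single libraries left out, and that of PROK2 in 1 (-2.32, adjusted p = 0.0668). The metabolic, chaperone and laminin genes had -1.40 (LDHA), -1.43 (ENO2), -1.36 (VEGFA), -1.35 (EGLN3), -2.04 (CRYAB), -1.54 (HSPB2), -1.75 (HSPB3), -1.63 (LAMA3) and -1.23 (LAMB3).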

How the results depend on the processing

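Genes higher in the SAN numbered 477 in the fit reported and 223 with a pseudocount of 1, 282 with a mean log2 value above 1, 2211 with no fold limit and 103 when tested against a log2FC of 1. Genes higher in the atria numbered 506, and 2505 and 107 under the last of these. The SAN took 48.5% of the calls, 38.1% and 39.8% under the first pair of settings, and 52.5% with median centring. Kept SAN-enriched genes numbered 298 of 852, and 136 of 509 and 178 of 509 under that pair. Narrowed atria-enriched genes went from 70 of 356 to 129 of 502 under quantile normalization. New SAN differences went from 28 to 10 with the pseudocount and 18 with the filter, and new atrial ones from 125 to 73 under quantile normalization and 66 with an adjusted p of at least 0.05 at both baselines. Turned differences went from 7 to 1 and 3 toward the SAN and from 40 to 17 and 25 toward the atria with the pseudocount and the filter, and to 25 under quantile normalization. The pseudocount damps low values and the filter tests fewer genes by construction, and the cause of the quantile changes was not tested. Without the 2 libraries that stand apart, 509 and 517 genes were called in SAN and atria.

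Leaving out each of the 24 libraries gave 419 to 510 calls higher in SAN and 452 to 560 higher in atria, 268 to 304 kept SAN-enriched and 155 to 180 kept atria-enriched genes, and 24 to 33 and 98 to 151 new differences. With the replicate number as a block, 482 and 510 genes were called, 302 and 168 identity genes were kept and 29 and 127 differences were new. The block changed no count reported by more than 1.5 times, and among named genes HAND2 passed in the tissue difference (adjusted p = 0.0451) and HAND1, SLN, THBS2 and PLAU in the interaction. Same-numbered pools of the tissues deviated together with r of 0.112 to 0.496 at t0, 0.054 to 0.202 with vehicle and 0.063 to 0.313 after CN03. All same-numbered values were thus positive. Pools of different number had r of -0.486 to 0.209 at t0, -0.38 to 0.363 with vehicle and -0.216 to 0.108 after CN03. The labels name no shared source, and whether same-numbered pools came from the same embryos is unknown. The main fit did not pair the samples. Over the named genes, 7331 of the recomputed values kept their side of the adjusted p threshold, 76 fell short of it and 80 newly passed it. The fold limit of a call was not part of this tally, so that calls lost or gained by it were not counted. In 1 the direction turned, the LY86 interaction, at -0.80 with a pseudocount of 1. A change of sign was not counted where neither value passed. Fits without a t0 library cannot change the size of these differences, so that part of this agreement was fixed in advance.

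Read depth is unknown, so that no counting error limits can be given for low values.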

Other observations

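TLR5, a receptor for bacterial flagellin chosen after its values were seen, read 8.77 in SAN CN03 library 1 and 2.96, 2.78 and 2.89 in SAN CN03 libraries 2 to 4, against 2.98 to 3.53 in the atrial CN03 libraries. The tissue difference of 1.14 was not called (adjusted p = 0.256). It is the library that stands apart on the second principal component. Of 581 genes on chromosome Z, 16 were called higher in the SAN and 38 higher in the atria after CN03. Of 11 genes on chromosome W, 1 was called higher in the SAN. Over all genes the shares were 3.84% and 4.07%, and a departure of either chromosome from them was not tested. The sex of the embryos in each pool was not used here.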
